A study of Homo sapiens with 30 samples.

Results

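The comparison described here is that of brain endothelial cells given extracellular vesicles of epinephrine-stimulated cells with the same cells given vesicles of unstimulated cells. Its members are 6 of the 30 libraries of the series, 3 named EV-Epinephrine and 3 named EV-Control, and the 15918 of 63138 genes with an Ensembl ID that passed a filter on low counts. All libraries come from hCMEC/D3, an immortalised human endothelial line from brain microvessels with which the blood-brain barrier is modelled in culture. Donor cells of the vesicles had been treated for 12 h with epinephrine at 200 nM for EV-Epinephrine, and with serum-free medium alone for EV-Control. The vesicles were then enriched from the culture supernatants and given to fresh cells, and the sample names of the recipients also carry 12 h. In the direct groups, Control and Epinephrine, the cells themselves were treated for 12 h with that medium alone or with 200 nM epinephrine. Further recipients were given vesicles of cells stimulated with tumour necrosis factor (EV-TNF), interleukin 1 beta (EV-IL1b) or the complement fragment C5a (EV-C5a), 3 libraries each. Neither the vesicle dose nor any epinephrine carried over with the vesicles is given in the sources used here. The replicates are not described as separate cultures, so p-values measure the spread between these samples, which may be technical, and all of them are of 1 cell line.

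Epinephrine acts through adrenergic receptors. Beta receptors raise cyclic AMP, which activates protein kinase A and the transcription factor CREB, and CREB induces a set of rapidly transcribed genes such as the NR4A nuclear receptors and FOSB. In endothelium the transcription factor NF-kB drives adhesion molecules and chemokines that recruit leukocytes, together with its own inhibitors NFKBIA and TNFAIP3. Extracellular vesicles are membrane-bound particles that carry protein and RNA between cells, and a recipient cell can respond to their cargo without meeting the stimulus of the donor.

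The 6 libraries held 16643961 to 18737265 counts. Levels below are counts scaled to the size of the library (CPM, the usual unit of counts relative to library size) on 1 scale for all 30 libraries. Endothelial markers were present, and the sum of 12 of them (CDH5, PECAM1, VWF, KDR, TEK, TIE1, ERG, FLI1, SOX18, CLDN5, NOS3 and ENG) was 966 to 1010 CPM in EV-Epinephrine and 884 to 904 CPM in EV-Control. NOS3, the endothelial nitric oxide synthase, was low, at 0.35 to 0.882 CPM in EV-Epinephrine and 0.219 to 0.826 CPM in EV-Control. Of 16 microglia and leukocyte markers, 12 had at most 3 counts in each EV-Epinephrine library, and their sum was 2.62 to 3.99 CPM against 3.5 to 4.3 CPM. In a principal component analysis of the 15 vesicle libraries the EV-Epinephrine libraries lay together, at 20.22 to 20.39 on the first component and 18.87 to 19.12 on the second. The EV-Control libraries were spread from -32.29 to -15.98 on the first, and EV-Control replicate 1 stood apart on the third, at -29.08. Replicates within EV-Control differed more, with a chi-square per gene of 4.87 to 10.1 for a pair, than those within EV-Epinephrine, at 2.04 to 2.35.

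**Figure D1:**
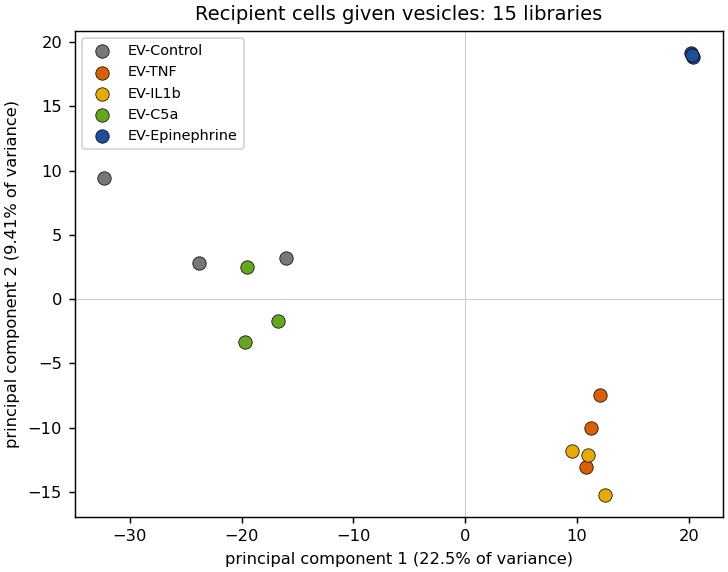
Principal components 1 and 2 of log2 CPM in the 15 libraries of cells given vesicles, 1 point per library, coloured by the stimulus of the donor cells. The 3 EV-Epinephrine libraries lie within 20.22 to 20.39 on the first component and 18.87 to 19.12 on the second, while EV-Control lies between -32.29 and -15.98 and EV-C5a between -19.67 and -16.78 on the first.

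In recipients of vesicles from epinephrine-stimulated cells, 24 of 37 tested NF-kB targets, 18 of 29 targets of cyclic AMP and CREB and 15 of 35 immediate early genes fell, with NR4A3 falling most, at -5.35 on the log2 scale. Of the interferon-stimulated genes 30 of 37 rose, as did 12 of 15 mitochondrially encoded transcripts, and the cadherin FAT1 and the desmosome protein DSP rose most among genes of at least 5 CPM. Of the 15918 genes, 3131 (19.7%) passed an adjusted p of 0.05 in edgeR's quasi-likelihood test, 1452 (9.12%) higher and 1679 (10.5%) lower in EV-Epinephrine. A log2 fold change over 1 in size was reached by 368 genes (2.31%), 138 that rose (0.867%) and 230 that fell (1.44%). The median log2 fold change over all genes was 0.0071, and among called genes the median size was 0.299. For 5427 genes (34.1%) all EV-Epinephrine libraries lay on 1 side of all EV-Control libraries. Scaling by total counts gave 1975 higher and 1305 lower, so that 60.2% of calls were higher against 46.4% with the scaling used throughout. In bulk RNA, fewer cells that express a gene and less RNA per cell cannot be told apart.

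The NR4A nuclear receptors, transcription factors that CREB induces, fell together. NR4A3 stood at 137, 80.7 and 28.1 CPM in the EV-Control libraries and at 2.59, 1.6 and 1.75 CPM in the EV-Epinephrine libraries. The groups lay far apart although EV-Control itself spread widely, and the log2 fold change was -5.35 ± 0.68 (SE, adjusted p = 0.00022). NR4A2 was at 370, 334 and 297 CPM in EV-Control and at 54, 62.1 and 60.5 CPM in EV-Epinephrine, a log2 fold change of -2.50 (adjusted p = 2.77e-07). NR4A1 was at 443, 453 and 351 CPM and at 138, 152 and 154 CPM, a log2 fold change of -1.49 (adjusted p = 2.54e-06). For all 3 receptors every EV-Epinephrine library was below every EV-Control library. NR4A3 was low in the cytokine vesicle groups too, at 4.27, 3.99 and 4.37 CPM in EV-TNF and 3.98, 4.34 and 5.3 CPM in EV-IL1b. NR4A2 and NR4A1 were also below every EV-Control library in all libraries of EV-TNF and EV-IL1b. In cells given no vesicles the mean of NR4A3 was 12.5 CPM in Control, a level below all EV-Control libraries and above all EV-Epinephrine libraries, and this difference was not tested.

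FOSB, a subunit of the AP-1 transcription factor, was at 383, 476 and 773 CPM in EV-Control and at 75.4, 87.9 and 127 CPM in EV-Epinephrine, a log2 fold change of -2.50 (adjusted p = 0.000564). The FOSB gene overlaps ERCC1 on the other strand, and whether counting used the strand is not given in the sources used here. ATF3, a stress-induced factor of the same family, was at 550, 547 and 667 CPM and at 105, 115 and 136 CPM, a log2 fold change of -2.31 (adjusted p = 4.37e-06). Both were lower in every EV-Epinephrine library. On the list of 32 targets of cyclic AMP and CREB, 29 were tested, 18 fell, none rose and 11 did not pass, with a median of -0.87 against 0.0071 over all genes and 10.5% of genes falling. Without EV-Control replicate 3, 2 members rose. Among the others that fell were PDE4B, a phosphodiesterase that degrades cyclic AMP (-1.38), the clock gene PER1 (-1.38) and the kinase SIK1 (-1.41), which has a near-identical genomic copy. Several members were not among them. EGR1 was at 87.8, 179 and 293 CPM in EV-Control and at 321, 365 and 391 CPM in EV-Epinephrine (log2 fold change 0.94, adjusted p = 0.0656), and FOS, at 44.2, 104 and 355 CPM against 176, 210 and 279 CPM, overlapped. Of 35 tested immediate early AP-1 and EGR genes 15 fell and 1 rose, beside 10.5% and 9.12% of all genes. The other 19 did not pass, and the median was -0.32. The number that rose was 3 without EV-Control replicate 3 and 2 without EV-Control replicate 1, with all 30 libraries, with the replicate block or with DESeq2. The one that rose with all vesicle libraries was DUSP4, a MAP kinase phosphatase (0.35), while its relative DUSP2 fell from 1.32, 3.75 and 4.27 CPM to 0.0519, 0.285 and 0.175 CPM, a log2 fold change of -4.17 (adjusted p = 2.56e-08). DUSP2 was below 5 CPM in all 6 libraries and near the floor in EV-Epinephrine, so the size of its fold change is uncertain.

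Upstream windows of FOSB and NR4A3 are printed with the short form of the CREB-binding element, TGACG on either strand, in capitals. Only windows that hold a match were printed. They were read from RefSeq promoters (GRCh38.p14), without bases that GENCODE 29 places inside the gene. FOSB lies at chr19:45467746-45467994 on the plus strand (249 bases) and NR4A3 at chr9:99821635-99821854 on the plus strand (220 bases).
FOSB: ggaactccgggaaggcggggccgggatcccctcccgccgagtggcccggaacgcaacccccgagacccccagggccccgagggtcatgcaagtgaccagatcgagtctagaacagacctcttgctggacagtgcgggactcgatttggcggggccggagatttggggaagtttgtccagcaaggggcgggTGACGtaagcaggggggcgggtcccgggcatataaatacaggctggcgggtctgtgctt
NR4A3: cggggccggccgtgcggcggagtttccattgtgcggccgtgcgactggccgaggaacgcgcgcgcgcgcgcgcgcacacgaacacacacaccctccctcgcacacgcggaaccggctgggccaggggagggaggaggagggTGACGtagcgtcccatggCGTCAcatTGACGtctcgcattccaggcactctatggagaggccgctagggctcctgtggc
The NR4A3 window shows 3 matches and that of FOSB 1. No window of NR4A1, ATF3, PDE4B or PER1, which also fell, held TGACG. For 14 of the 18 cyclic AMP and CREB targets that fell, 27 windows were found, and 9 of these (33.3%) held it. TGACG occurred in 21.2% of all 35116 RefSeq windows of 250 bases before a gene start, in 27.3% of the 16277 windows of tested genes, in 30.3% of windows of genes that fell and in 22.1% of those that rose. It includes matches within the full element TGACGTCA. A match is a description of the letters and no evidence of binding.

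**Figure D2:**
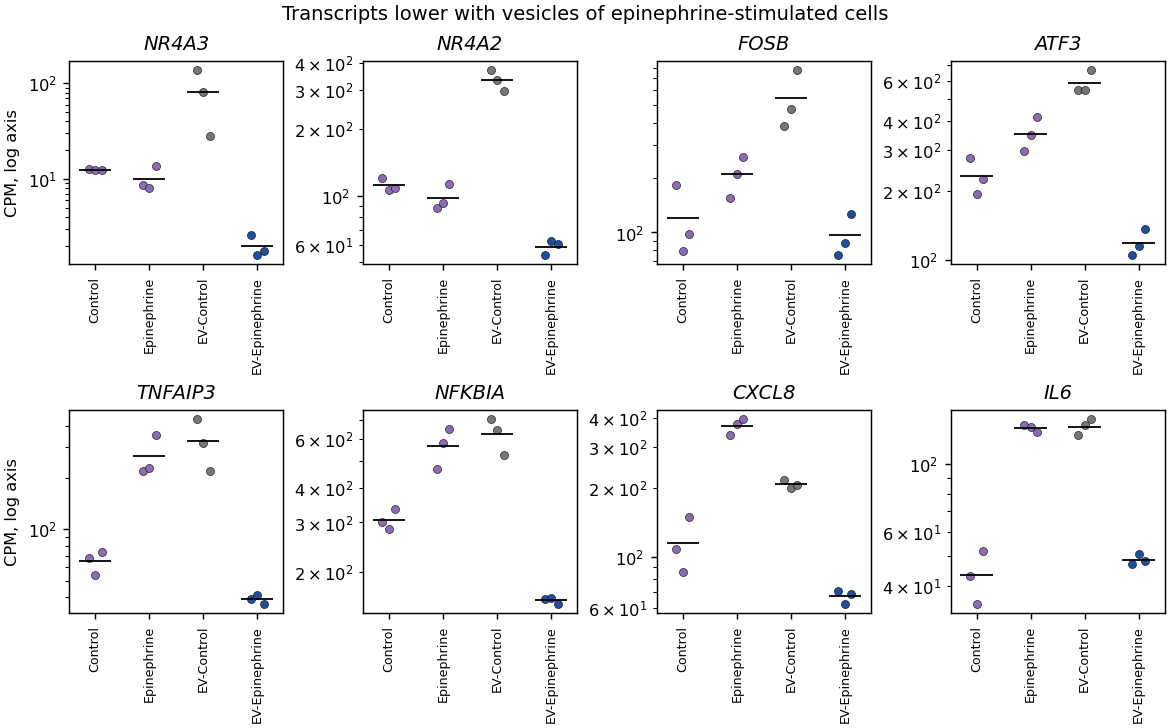
CPM on a log axis of 8 transcripts in the 3 libraries of Control, Epinephrine, EV-Control and EV-Epinephrine (points), with the group mean as a bar. Every EV-Epinephrine library lies below every EV-Control library for all 8, such as NFKBIA at 153 to 161 CPM against 526 to 703 CPM in EV-Control.

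NF-kB targets were the list with the most members lower. TNFAIP3, a ubiquitin-editing inhibitor of NF-kB, was at 437, 320 and 217 CPM in EV-Control and at 39.1, 41.2 and 36.5 CPM in EV-Epinephrine, a log2 fold change of -3.05 ± 0.25 (SE, adjusted p = 8.45e-06). NFKBIA, the inhibitor that holds NF-kB in the cytoplasm, was at 703, 644 and 526 CPM and at 159, 161 and 153 CPM, a log2 fold change of -1.98 ± 0.11 (adjusted p = 2.45e-07). NFKBIZ, a nuclear NF-kB cofactor, was at 384, 426 and 509 CPM and at 113, 126 and 132 CPM, a log2 fold change of -1.83 (adjusted p = 1.55e-05). In each of the 3 the groups were apart in all libraries. Their mean in EV-Epinephrine was also below that in Control, cells without vesicles, which was 64.9 CPM for TNFAIP3, 307 CPM for NFKBIA and 197 CPM for NFKBIZ, again without a test.

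The chemokines and cytokines of the list followed. CXCL8, which attracts neutrophils, was at 215, 200 and 205 CPM in EV-Control and at 70.7, 62.3 and 69.1 CPM in EV-Epinephrine, a log2 fold change of -1.62 (adjusted p = 6.41e-05). IL6 was at 124, 134 and 140 CPM and at 47.2, 50.6 and 48.1 CPM, a log2 fold change of -1.45 (adjusted p = 3.66e-05). CXCL3 was at 19.2, 14 and 10.5 CPM and at 1.5, 3.02 and 1.69 CPM (-2.82), though reads of CXCL1, CXCL2 and CXCL3 may be split between near-identical sequences. The chemokine CCL20 (-3.09) and the interleukins IL1A (-2.29) and IL1B (-1.69) fell as well. The growth factor CSF2 fell from 14.7, 5.62 and 3.23 CPM to 1.3, 0.627 and 0.874 CPM (-3.04, adjusted p = 0.00897), and with only these 2 groups in the fit its adjusted p was 0.094. The adhesion molecule ICAM1 was at 252, 182 and 148 CPM and at 86.1, 90.9 and 88.3 CPM, a log2 fold change of -1.13 (adjusted p = 0.000393). VCAM1 was at 43.5, 20.7 and 13.8 CPM and at 8.14, 9.06 and 8.04 CPM (-1.62, adjusted p = 0.0106). SELE, E-selectin, was at 5.22, 1.54 and 0.0547 CPM and at 0.156, 0.228 and 0.117 CPM, and its groups overlapped although its adjusted p was 0.0336.

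In all, 37 of the 40 genes on this list were tested. Of these 24 fell and 2 rose, beside 10.5% and 9.12% of all genes, and 11 did not pass. The median was -1.13. The 2 that rose were the interferon-induced chemokine CXCL11 (1.39) and CCL5 (0.54), and 1 rose without EV-Control replicate 2 or without EV-Epinephrine replicate 2 or 3. EV-Control replicate 1 held the highest value of ICAM1, VCAM1, CCL2, SELE and CSF2. Without it 25 members fell, and with only the 2 groups in the fit 13 did, among them neither VCAM1 (adjusted p = 0.136) nor CCL2 (0.0631).

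Windows before NFKBIA and NFKBIZ are shown with the NF-kB element in capitals, GGG followed by any 2 bases and TTTCC, on either strand. NFKBIA lies at chr14:35404750-35404999 on the minus strand and NFKBIZ at chr3:101827740-101827989 on the plus strand, each 250 bases.
NFKBIA: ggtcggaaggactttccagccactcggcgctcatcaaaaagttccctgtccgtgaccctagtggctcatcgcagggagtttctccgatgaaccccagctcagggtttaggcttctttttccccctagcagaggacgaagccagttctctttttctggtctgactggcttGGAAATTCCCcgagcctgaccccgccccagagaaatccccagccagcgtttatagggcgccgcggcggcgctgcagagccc
NFKBIZ: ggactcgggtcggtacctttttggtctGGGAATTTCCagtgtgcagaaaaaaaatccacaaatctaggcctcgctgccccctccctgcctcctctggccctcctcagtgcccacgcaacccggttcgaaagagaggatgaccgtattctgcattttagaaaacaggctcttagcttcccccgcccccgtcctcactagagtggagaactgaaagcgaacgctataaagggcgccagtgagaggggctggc
The element was in 12 of the 27 windows (44.4%) found for 20 of the 24 members that fell, against 1.73% of all windows and 1.94% of those of tested genes. Over all genes that fell the share was 2.4%, and over all that rose 2.47%. The list was made of known NF-kB targets, so its share describes how it was composed.

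**Figure D3:**
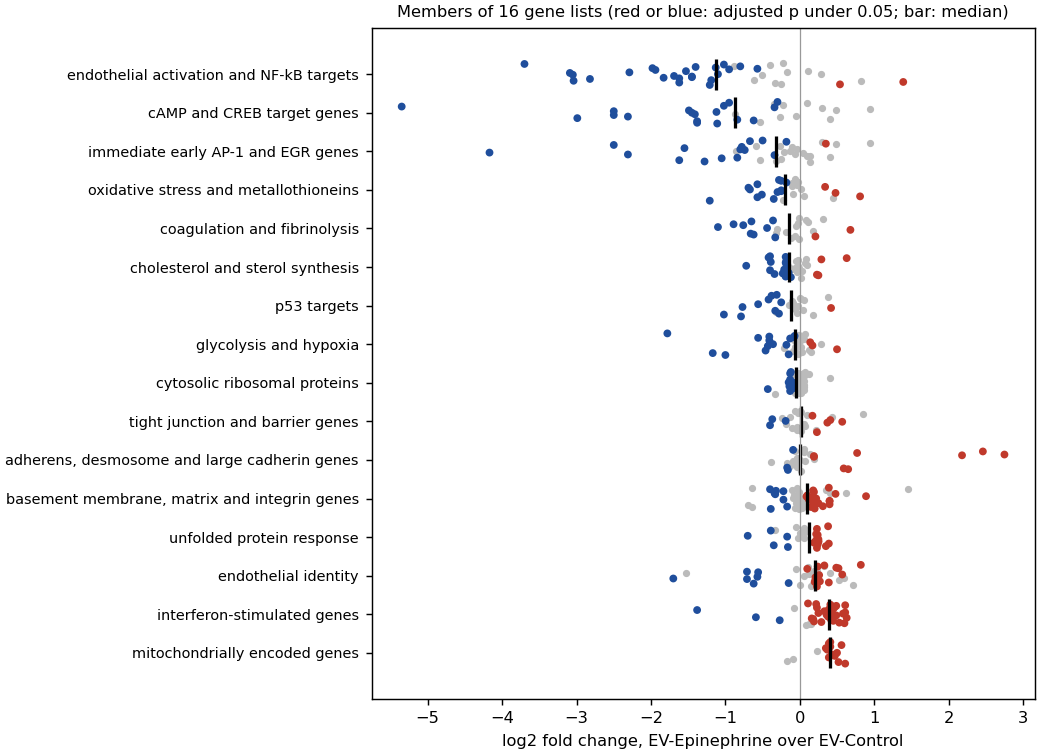
Log2 fold change of each tested member of 16 gene lists (points), with the list median as a bar. Blue and red points passed an adjusted p of 0.05 lower or higher in EV-Epinephrine. NF-kB targets have a median of -1.13 and interferon-stimulated genes 0.39.

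Interferon-stimulated genes, which encode antiviral proteins, moved the other way. ISG15, a ubiquitin-like modifier, was at 223, 234 and 239 CPM in EV-Control and at 370, 337 and 350 CPM in EV-Epinephrine, a log2 fold change of 0.60 (adjusted p = 9.68e-09). IFIT1, which binds foreign RNA, was at 219, 223 and 236 CPM and at 335, 320 and 322 CPM, a log2 fold change of 0.53 (adjusted p = 2.47e-17). Both pairs of groups were apart. Of 37 members 30 rose and 3 fell, beside 9.12% and 10.5% of all genes, with a median of 0.39. Under the settings tried 27 to 31 rose. Over the same EV-Control libraries, 34 rose and 1 fell in EV-TNF (median 0.66), beside 5.9% and 7.42% of all genes. In EV-IL1b 33 rose and 1 fell (median 0.62), beside 6.49% and 8.14%, so the rise was shared with both cytokine vesicle groups. Those that fell in EV-Epinephrine were IRF1, a transcription factor that NF-kB also induces (-1.38, adjusted p = 0.00152), GBP2 and ISG20. With only these 2 groups in the fit the adjusted p of IRF1 was 0.0673.

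Transcripts of the mitochondrial genome were higher too. Of 15, 12 rose, none fell, and the median was 0.41. Over the same EV-Control libraries all 15 were above 0 in EV-TNF (median 0.26) and in EV-IL1b (median 0.25). Of these 2 passed in EV-TNF and 3 in EV-IL1b, beside 5.9% and 6.49% of all genes called higher. None of the 15 passed between EV-Epinephrine and EV-TNF or EV-IL1b. MT-CYB, a subunit of respiratory complex III, was at 1520, 1320 and 1630 CPM in EV-Control and at 2060, 2270 and 2250 CPM in EV-Epinephrine, a log2 fold change of 0.56 (adjusted p = 0.00153). MT-RNR2, the large ribosomal RNA of the mitochondrion, overlapped between groups at -0.09. The mitochondrial genome held 2.84% to 3.14% of counts in EV-Epinephrine and 1.99% to 2.49% in EV-Control. With only these 2 groups in the fit 5 members rose, and without EV-Epinephrine replicate 2 the number was 7. Of 71 tested nuclear genes of oxidative phosphorylation, 2 rose and 2 fell, beside 9.12% and 10.5% of all genes. Without EV-Epinephrine replicate 1 or 2 none fell, 1 fell without EV-Control replicate 1 or 2 or EV-Epinephrine replicate 3, and 1 rose without EV-Epinephrine replicate 1 or 3.

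Genes of cell contact led the rises. FAT1, a giant cadherin, was at 1.62, 2.26 and 3.39 CPM in EV-Control and at 17.1, 16.6 and 15.6 CPM in EV-Epinephrine, a log2 fold change of 2.75 ± 0.16 (SE, adjusted p = 6.3e-20). DSP, desmoplakin, which ties desmosomes to intermediate filaments, was at 7.73, 6.56 and 7.17 CPM and at 33.6, 35 and 28.7 CPM, a log2 fold change of 2.18 ± 0.1 (adjusted p = 1.12e-24). DSG2, a desmosomal cadherin, was at 1.38, 0.661 and 0.328 CPM and at 5.5, 3.65 and 3.67 CPM (2.46, adjusted p = 1.06e-07). For all 3, each EV-Epinephrine library was above each EV-Control library. The sum of 12 epithelial markers was 767 to 776 CPM in EV-Epinephrine and 780 to 823 CPM in EV-Control, and CDH1, GRHL2 and ESRP1 had at most 3 counts in each of the 6 libraries. They were not accompanied by most of their list, since of 29 tested adherens junction, desmosome and cadherin genes 8 rose and 3 fell with a median of 0.0036, whose sign turned with relative log expression scaling (-0.0013). Of all genes 9.12% rose and 10.5% fell. The number of members that fell was 1 without EV-Control replicate 1, without EV-Epinephrine replicate 2 or 3 or with total-count scaling, 0 with all 30 libraries and 6 with the GC correction. FAT1 shows the full CREB-binding element TGACGTCA, which is in 1.65% of all windows, 2.45% of those of tested genes, 2.1% of those of genes that rose and 3.19% of those of genes that fell, so that it was less frequent among rising than among tested genes. Its window lies at chr4:186726723-186726946 on the minus strand (224 bases), with the element in capitals.
FAT1: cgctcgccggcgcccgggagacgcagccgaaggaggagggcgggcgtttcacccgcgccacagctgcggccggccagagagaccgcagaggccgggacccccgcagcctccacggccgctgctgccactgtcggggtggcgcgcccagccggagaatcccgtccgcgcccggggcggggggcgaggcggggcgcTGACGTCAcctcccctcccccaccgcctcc

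Other rises included NOTCH3, a receptor of the Notch pathway, from 8.09, 8.37 and 9.57 CPM to 25.2, 22.6 and 25 CPM (1.48, adjusted p = 3.64e-16). NOTCH3 is also a pericyte marker. The sum of the 11 pericyte and smooth muscle markers, NOTCH3 among them, was 516 to 538 CPM against 430 to 451 CPM. ABCC9 and KCNJ8 were at 3 counts or fewer throughout. Most of the sum was CSPG4, at 317, 342 and 333 CPM in EV-Control and at 417, 399 and 413 CPM in EV-Epinephrine. Of 7 tested markers 2 rose and 1, VTN, fell, beside 9.12% and 10.5% of all genes, with a median of -0.09. The part of these markers in the rise of NOTCH3 was not tested. The receptor phosphatase PTPRS (1.63), the transcription factors PITX1 (1.73) and FOXD1 (1.49) and the ubiquitin hydrolase UCHL1 (1.33) rose as well. The cholesterol efflux pumps ABCA1, at 9.53, 9.2 and 7 CPM against 18.1, 18.6 and 18.7 CPM (1.11, adjusted p = 9.08e-11), and ABCG1 (1.63) were higher. On the list of barrier transporters, 4 of 29 tested genes rose and 13 fell, among them the glucose transporter SLC2A3 (-0.66). Over all genes 9.12% rose and 10.5% fell. SREBF1, a regulator of lipid synthesis, rose from 135, 141 and 139 CPM to 213, 211 and 221 CPM (0.63, adjusted p = 1.07e-19), and MAT2A, which makes the methyl donor S-adenosylmethionine, from 152, 153 and 152 CPM to 236, 240 and 248 CPM (0.67).

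**Figure D4:**
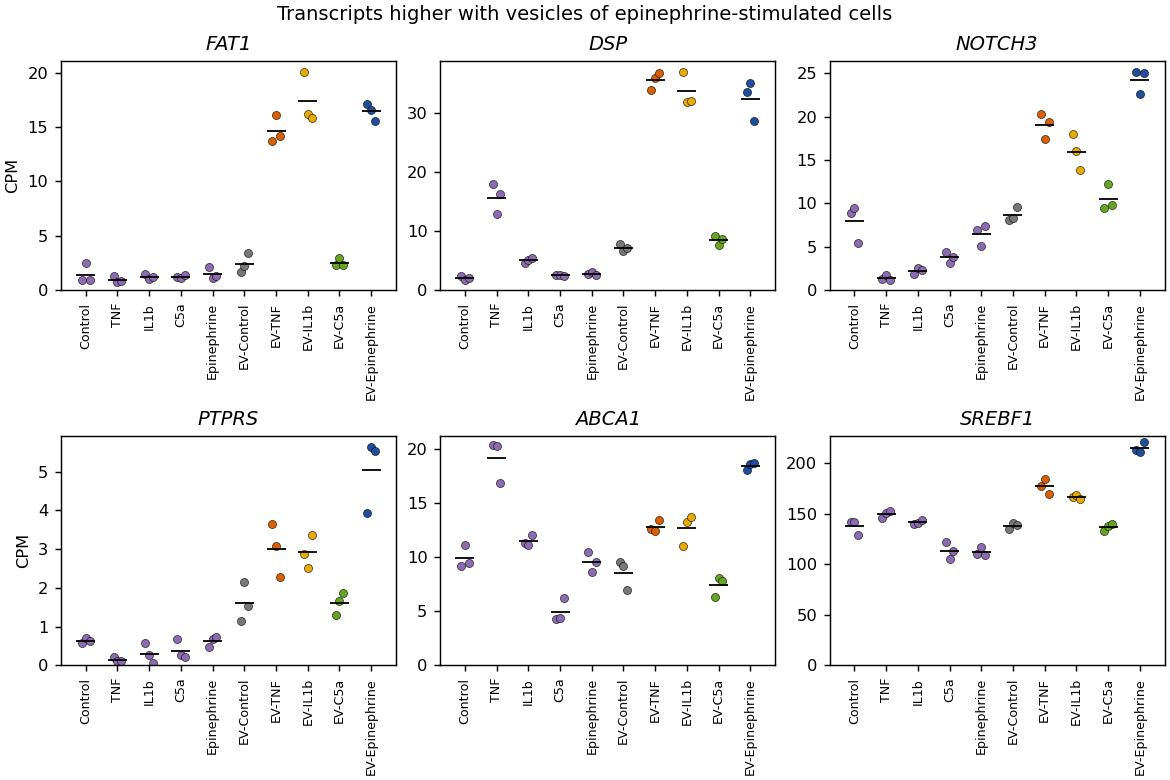
CPM of 6 transcripts in all 10 groups, 3 libraries each (points), with group means as bars and axes from 0. FAT1 is at 14.7 CPM in EV-TNF, 17.4 CPM in EV-IL1b and 16.4 CPM in EV-Epinephrine, while SREBF1 has its highest mean, 215 CPM, in EV-Epinephrine.

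Cholesterol synthesis genes included 18 of 35 that fell. IDI1, an enzyme of the isoprenoid steps, was at 303, 279 and 282 CPM in EV-Control and at 214, 219 and 213 CPM in EV-Epinephrine, a log2 fold change of -0.42 ± 0.036 (SE, adjusted p = 9.67e-14). HMGCS1, which makes the HMG-CoA that enters the pathway, was at 367, 346 and 359 CPM and at 270, 279 and 269 CPM (-0.39, adjusted p = 3.8e-12). Neither overlapped between the groups. The list had a median of -0.14, and 4 members rose, while over all genes 9.12% rose and 10.5% fell. Those that rose were SREBF1 and the fatty acid enzymes FASN (0.23), SCD (0.29) and ELOVL6 (0.25). In the unfolded protein response, 13 of 26 genes rose and 5 fell, with the chaperones HSPA5 (0.38) and HSP90B1 (0.39) higher and DNAJB9 (-0.70) and XBP1 (-0.39) lower. Of that list 2 fell without EV-Control replicate 1, and 3 without EV-Epinephrine replicate 2 or 3.

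Genes of growth factor signalling and metabolism were also among the falls. ID2, an inhibitor of helix-loop-helix factors, was at 41.1, 53.6 and 51.6 CPM in EV-Control and at 7, 8.32 and 8.27 CPM in EV-Epinephrine, a log2 fold change of -2.64 (adjusted p = 5.89e-22). PDK4, a kinase that restrains pyruvate oxidation, was at 194, 145 and 127 CPM and at 47.4, 45.2 and 42.9 CPM (-1.78, adjusted p = 2.48e-05). Neither of these overlapped between the groups. EREG, a ligand of the EGF receptor, fell from 9.05, 7.16 and 7.66 CPM to 1.19, 1.03 and 0.932 CPM (-2.90), and another such ligand, HBEGF, by 1.48. Of 39 tested targets of YAP, TGF-beta and SRF, 13 fell and 4 rose, with a median of -0.09. Over all genes 10.5% fell and 9.12% rose, to be read beside the counts of this and the following lists. The glycolysis and hypoxia list had 15 of 35 lower and 3 higher, the oxidative stress and metallothionein list 13 of 26 lower and 3 higher, and the p53 list 10 of 24 lower and 1 higher, including the cell cycle inhibitor CDKN1A (-0.56). The members that rose numbered 1 in the glycolysis list without EV-Control replicate 1 or EV-Epinephrine replicate 1 or 3, and 1 in the oxidative stress list without EV-Control replicate 2 or EV-Epinephrine replicate 3. Coagulation and fibrinolysis genes had 9 of 24 lower and 2 higher, and 5 lower with only these groups in the fit, where tissue factor, F3, no longer passed (adjusted p = 0.104). The ribosomal protein list had 11 of 78 lower and none higher with a median of -0.04, which leaves its falls near the 10.5% of all genes that fell. The number lower was 5 to 16 across the settings tried and 7 without EV-Control replicate 1. On the vesicle biogenesis and uptake list 8 of 43 fell and 4 rose, beside 10.5% and 9.12% of all genes, which leaves the rises near the background. Of those rises 2 were left without EV-Control replicate 3 or EV-Epinephrine replicate 1 or 2, and 1 without EV-Control replicate 2 or EV-Epinephrine replicate 3.

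Most tested genes of the barrier itself did not pass the test. TJP1, a tight junction scaffold, was at 215, 198 and 197 CPM in EV-Control and at 205, 211 and 203 CPM in EV-Epinephrine (0.02), and the groups overlapped. OCLN, occludin, had a log2 fold change of -0.04 and CDH5, VE-cadherin, of 0.0033, both with signs that turn between settings. ABCB1, the efflux pump P-glycoprotein (-0.07), and CLDN5, the main claudin of brain endothelium (0.22), did not pass either, while PECAM1 rose by 0.23 (adjusted p = 7.13e-06). Of 26 tested tight junction and barrier genes 5 rose and 3 fell, beside 9.12% and 10.5% of all genes, and 1 fell without EV-Epinephrine replicate 3. ESAM was higher, at 13.1, 12.3 and 10.7 CPM in EV-Control and at 17.1, 19.1 and 17.7 CPM in EV-Epinephrine. CLDN1 was lower, at 60.5, 46.3 and 44.7 CPM in EV-Control and at 39.9, 37 and 37.7 CPM in EV-Epinephrine. Of 39 tested endothelial identity genes 15 rose and 7 fell, and without EV-Control replicate 1 or without EV-Epinephrine replicate 1 only 9 rose. The matrix list had 21 of 57 genes higher and 8 lower, including COL1A1 (0.48) and COL6A1 (0.40), and 10 fibroblast and mesenchymal markers summed to 325 to 335 CPM against 224 to 252 CPM, whose part in these rises was not tested. COL1A1 is itself on that marker list.

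Among adrenergic receptors, ADRB1, a beta receptor, was at 9.95, 10.9 and 10.8 CPM in EV-Control and at 9.49, 8.77 and 8.8 CPM in EV-Epinephrine, a log2 fold change of -0.22 (adjusted p = 0.25). ADRA1B, an alpha-1 receptor, was at 14.6, 14.5 and 16 CPM and at 15, 13.8 and 13.8 CPM (-0.08, adjusted p = 0.63). Neither passed the test, and the groups overlapped for ADRA1B. ADRA1A and ADRB3 had no counts in these 6 libraries, which allows up to 3 counts each.

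Direct epinephrine was compared in libraries that the vesicle comparison did not use, and there NF-kB targets were mostly higher and interferon-stimulated genes mostly lower. Of 15908 genes 4012 (25.2%) were called, and 2141 (13.5%) were higher and 1871 (11.8%) lower in Epinephrine than in Control. TNFAIP3 rose there by 2.05 on the log2 scale (adjusted p = 1.98e-05) and CXCL8 by 1.71 (adjusted p = 4.57e-05), both of which fell in the vesicle recipients. The NF-kB list had 24 of 38 members higher and 5 lower with direct epinephrine, with a median of 0.78, against 2 higher and 24 lower with vesicles. Interferon-stimulated genes, 30 of which rose with vesicles, had 21 of 37 lower with direct epinephrine (median -0.32). Targets of cyclic AMP and CREB were mixed there, with 12 of 29 higher and 8 lower and a median of 0.02. NR4A3 was at 8.54, 7.97 and 13.6 CPM in Epinephrine and at 12.6, 12.4 and 12.4 CPM in Control. Of the 15450 genes tested in both, 524 were lower with vesicles and higher with direct epinephrine, which is 31.3% of the list lower with vesicles and 24.6% of the list higher with direct epinephrine. A further 329 were higher with vesicles and lower with direct epinephrine (23.2% and 17.7% of the lists). In the same direction, 238 were lower in both (14.2% and 12.8%) and 186 were higher in both (13.1% and 8.73%). The difference between the responses, the vesicle change minus the direct change, was tested in a fit of all 30 libraries. It passed for 4034 of 16691 genes (24.2%), 1950 (11.7%) above and 2084 (12.5%) below 0. In that test 26 of 38 NF-kB targets were below 0 and 2 above, 22 of 29 cyclic AMP and CREB targets were below and 2 above, and 31 of 37 interferon-stimulated genes were above and 3 below. The vesicle and direct groups had different treatments and baselines, with EV-Control above Control for genes such as NFKBIA (625 against 307 CPM).

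**Figure D5:**
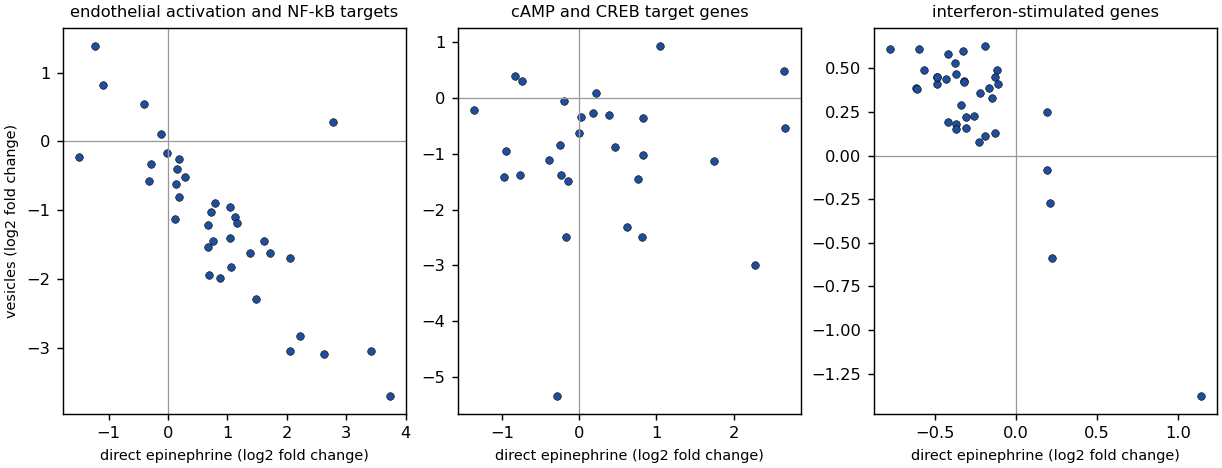
Log2 fold changes of the members of 3 gene lists, with direct epinephrine over Control on the x axis and vesicles of epinephrine-stimulated cells over EV-Control on the y axis, 1 point per gene. NF-kB targets lie mainly at lower right, with medians of 0.78 and -1.13, and interferon-stimulated genes at upper left, with medians of -0.32 and 0.39.

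Recipients of epinephrine vesicles were then set against those of other stimulated cells. Against EV-C5a, 2730 of 15918 genes (17.2%) were called, 1315 (8.26%) higher and 1415 (8.89%) lower. C5a vesicles were close to control vesicles, with 8 genes (0.0503%) called between EV-C5a and EV-Control by edgeR's quasi-likelihood test, 2 (0.0126%) higher and 6 (0.0377%) lower. Against EV-TNF 865 genes (5.43%) were called, 365 (2.29%) higher and 500 (3.14%) lower, and against EV-IL1b 963 (6.05%), 407 (2.56%) higher and 556 (3.49%) lower. Leaving out any EV-Epinephrine library lowered the count against EV-TNF to 513, 541 or 567. Against EV-IL1b, the count was 592 without EV-Epinephrine replicate 1, 617 without replicate 3, 625 without EV-IL1b replicate 2 and 1493 with only these groups in the fit. TNFAIP3 was lower with EV-Epinephrine than with both cytokine vesicles (38.9 ± 2.36 against 112 ± 15.7 and 112 ± 12.1 CPM, SD, n = 3 libraries, edgeR adjusted p = 0.00591 and 0.00539). So was ATF3, at -1.72 against EV-TNF (adjusted p = 0.000163) and -1.83 against EV-IL1b (9.99e-05). PTPRS was higher, by 0.74 (adjusted p = 0.0305) and 0.79 (adjusted p = 0.0208). Of the 37 interferon-stimulated genes, 29 were lower in EV-Epinephrine than in EV-TNF and none higher, such as IFIT1 (326 against 422 CPM, log2 fold change -0.37). Against EV-IL1b 26 were lower and none higher. FAT1 and DSP did not pass against either cytokine vesicle group, with FAT1 differing by 0.17 and -0.08. EV-TNF and EV-IL1b were each compared with the same EV-Control libraries as EV-Epinephrine, so their changes are given only side by side. In EV-TNF over EV-Control, where 2120 genes (13.3%) were called, 5.9% higher and 7.42% lower, the NF-kB list had 16 genes lower and 2 higher. In EV-IL1b over EV-Control, where 2329 (14.6%) were called, 6.49% higher and 8.14% lower, it also had 16 lower and 2 higher. Targets of cyclic AMP and CREB had 16 of 29 lower and 3 higher in EV-TNF, and 13 lower and 3 higher in EV-IL1b, over EV-Control. Of these targets 9 were lower in EV-Epinephrine than in EV-TNF and 10 lower than in EV-IL1b, with none higher.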

How the data were processed

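The authors deposited 1 table of raw counts per Ensembl gene for 30 libraries. Per the submitters' processing notes, FastQC, STAR, DESeq2, R 4.4.1 and hg38 were named, and the counting program, annotation and strand setting are not given in the sources used here. All libraries carry the same batch number. Of 63147 lines, 4 held no gene ID (0.000789% to 0.00164% of a library) and were left out, as were 2 genes without counts. Library totals were 16643961 to 22112326 counts, and no molecular identifiers are described. Floors therefore cover counting error only, while the SE and SD given also hold the spread between libraries. A count of 0 allows up to 3 counts.

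Counts were filtered with filterByExpr, scaled with TMM (trimmed mean of M-values) and tested with edgeR 4.0.16 in R 4.3.3 (quasi-likelihood, robust, two-sided, Benjamini-Hochberg adjustment over all genes tested, threshold 0.05). The vesicle comparisons used all 15 vesicle libraries, the direct comparison the 15 direct libraries, and the difference of responses all 30. The analysis was tested on simulated data. Positions are those of GENCODE 29, which holds 58124 of 63138 gene IDs, and so are gene lengths and GC contents, since the table gives no lengths.

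The comparison, the gene lists and the naming rule were chosen with earlier results of these data known. The rule named up to 15 genes rising and 15 falling most (with a symbol, no overlap of libraries and a mean of 5 CPM or more in either group), up to 6 each way above 200 CPM, up to 4 passing members per list, and 25 receptor, inflammation and barrier genes whatever they did. It also named up to 4 genes each way per further comparison. Some genes that the rule selected are not reported here. Genes given as needed to describe a list were picked after their values were seen. Alternatives were relative log expression and total-count scaling, no filter, DESeq2 1.42.0, a mean of at least 50 counts, a minimum log2 fold change of 1, other sets of libraries, the replicate block, a GC correction and leaving out each library. The replicate block with only 2 groups in the fit was added after seeing the data.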

Additional observations from a re-analysis of the deposited data

Results flagged for a closer look

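The response to vesicles of epinephrine-stimulated cells differed from the response to epinephrine itself for 4034 genes, by a test of the difference in a fit of all 30 libraries with edgeR. The rule on size took 8 of them, whose difference (vesicle minus direct, log2) was -6.44 for the growth factor CSF2, -6.42 for C11orf96, -5.70 for the chemokine CCL20 and -5.35 for SLC7A11-AS1, and 2.78 for ZNF792, 2.67 for FAT1, 2.50 for NRROS and 2.46 for VIPR1. CSF2, CCL20 and SLC7A11-AS1 were low in both Control and EV-Epinephrine, so the sizes of their differences are uncertain. CSF2 was at 0.634, 0.48 and 0.337 CPM in Control, and SLC7A11-AS1 at 0.846, 0.373 and 1.01 CPM. The antisense gene SLC7A11-AS1 shares bases with SLC7A11, and whether counting used the strand is not given in the sources used here. CCL20 fell by 3.09 with vesicles and rose by 2.62 with direct epinephrine. VIPR1, a receptor for vasoactive intestinal peptide, had a log2 change of 0.66 with vesicles and of -1.79 with direct epinephrine. It was at 20.7, 20.5 and 18.2 CPM in Control. In cells treated directly with C5a it was at 7.44, 8.62 and 7.08 CPM, and lower still with tumour necrosis factor or interleukin 1 beta. NRROS was also below Control in all libraries of these 3 direct treatments. Those differences were not tested here.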

How the results depend on the processing

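The 3131 calls became 2427 to 3136 when each library was left out in turn, 2732 with only the 2 groups in the fit, 2734 with all 30 libraries, 2813 without the filter, 2894 with DESeq2 and 3240 with the GC correction. A log2 fold change over 1 as well left 368 genes, 138 higher and 230 lower. Against EV-TNF, leaving out a library gave 513 to 677 calls in place of 865, and against EV-IL1b 592 to 717 in place of 963, or 1493 with only the groups compared. The cause was not tested. Replicate numbers are shared between groups, but libraries of EV-Control and EV-Epinephrine with the same number did not deviate together (correlations 0.00732, 0.00171 and 0.0171), so the numbers were not taken as pairs. With the replicate block, calls were 3086 against EV-Control, 841 against EV-TNF, 929 against EV-IL1b, 2671 against EV-C5a, 3912 for direct epinephrine and 3989 for the difference of responses, and 2552 with the block and only the 2 groups. CDH5, which did not pass, changed sign under relative log expression scaling (-0.0017), no filter (-0.0022), the GC correction (-0.02) and DESeq2 (-0.0016), and lay between -0.03 and 0.04 without a library, and OCLN, at -0.13 to 0.02 without a library, changed sign to 0.01 or 0.02 in 2 cases. Of 157 named genes that passed, 115 passed under every alternative. The adjusted p of SELE rose to between 0.0845 and 0.106 without an EV-Epinephrine library and was 0.0322, 0.0421 and 1.04e-08 without EV-Control replicate 1, 2 and 3.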

Other observations

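Genes named ZNF and a number, mostly zinc finger factors, were looked at after their values were seen. Of 480 tested, 81 were higher and 19 lower in EV-Epinephrine, beside 9.12% and 10.5% of all genes. Their median was 0.18 against 0.0071 over all genes. In EV-TNF over the same EV-Control libraries 44 were higher and 13 lower, beside 5.9% and 7.42% of all genes. In EV-IL1b the counts were 37 and 15, beside 6.49% and 8.14%. With direct epinephrine 55 of 482 were higher and 26 lower, beside 13.5% and 11.8%. By GC content, the group of genes with the lowest values, of 5 equal groups, was called higher in 7.76% and lower in 12.3% of cases, and the group with the highest in 12.3% and 8.51%, with length and GC known for 96.7% of the genes tested.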
